A study of Mus musculus with 6 samples.

Results

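Aminoacyl-tRNA synthetases are the enzymes that attach each amino acid to its transfer RNA. The genes described here were every protein-coding gene of the count table whose symbol names such an enzyme, from Aars to Yars2, together with Eprs. The rule found 38 genes among the 48795 of the table. Of these, 19 encode cytosolic enzymes, 17 encode mitochondrial enzymes, and 2, Gars and Kars, encode enzymes that serve both compartments from 1 gene. The rule itself uses gene names only, but the family was proposed with earlier results of these data known.

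RNA sequencing was performed on quadriceps muscle of male C57BL/6 mice aged 20 weeks. MERKO mice carry a muscle-specific deletion of the estrogen receptor ERα (genotype Er_alpha-/-, gene Esr1), and wild-type mice served as controls, with 3 libraries in each group. The promoter that drives the deletion is not given in the sources used here. Whole muscle was taken, so fewer cells of a type and less RNA per cell cannot be told apart in any value below.

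Each synthetase recognises 1 amino acid and its set of transfer RNAs, and the charged transfer RNA then carries the amino acid to the ribosome. Cytosolic enzymes serve the ribosomes that translate nuclear messages, while a second set, encoded in the nucleus and imported, serves the mitochondrial ribosomes that make subunits of the respiratory chain. Several of the cytosolic enzymes sit together in the multi-tRNA synthetase complex, and ATF4, the transcription factor of the amino acid response, is known to drive many cytosolic synthetase genes when amino acids run short.

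The promoters of 28 of the 38 genes were present in the RefSeq promoter table (build GRCm38.p6, 250 bases before to 50 after the start site). Genes with no promoter entry included Cars, Hars, Hars2, Lars, Nars, Pars2, Rars, Vars and Wars. The letters TGATGNAA, the core of the element that ATF4 binds, were searched on both strands, and 5 of the 28 genes held them. These were 4 of the 12 cytosolic genes with a promoter, 1 of the 2 dual genes and 0 of the 14 mitochondrial genes, against 3.97% of all 32851 promoter windows. The 5 promoters are shown because they hold these letters, and their genes are followed in the results on the amino acid response. They are chr8:111033592-111033891 (+ strand) for Aars, chr6:55037751-55038050 (+) for Gars, chr13:49681880-49682179 (+) for Iars, chr15:11399609-11399908 (−) for Tars and chr4:129189653-129189952 (+) for Yars. Each is written 5′ to 3′ on the strand of its gene, and capitals mark the match, which is the reverse complement of the motif in all but Yars.
Aars: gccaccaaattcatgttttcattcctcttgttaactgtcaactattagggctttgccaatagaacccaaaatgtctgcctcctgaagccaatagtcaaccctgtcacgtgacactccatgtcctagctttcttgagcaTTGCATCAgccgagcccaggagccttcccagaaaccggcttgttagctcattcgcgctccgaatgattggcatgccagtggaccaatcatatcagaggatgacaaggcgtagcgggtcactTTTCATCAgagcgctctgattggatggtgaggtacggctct
Gars: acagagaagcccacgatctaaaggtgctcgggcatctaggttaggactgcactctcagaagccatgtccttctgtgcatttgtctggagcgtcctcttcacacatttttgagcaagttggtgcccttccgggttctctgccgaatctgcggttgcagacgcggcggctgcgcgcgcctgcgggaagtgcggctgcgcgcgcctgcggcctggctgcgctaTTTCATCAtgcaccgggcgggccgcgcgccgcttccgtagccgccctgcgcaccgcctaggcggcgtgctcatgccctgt
Iars: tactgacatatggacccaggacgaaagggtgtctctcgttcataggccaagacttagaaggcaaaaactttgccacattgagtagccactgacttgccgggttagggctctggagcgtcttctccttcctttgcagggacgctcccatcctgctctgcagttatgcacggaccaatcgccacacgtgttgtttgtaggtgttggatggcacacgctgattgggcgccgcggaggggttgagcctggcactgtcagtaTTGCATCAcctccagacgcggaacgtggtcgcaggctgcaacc
Tars: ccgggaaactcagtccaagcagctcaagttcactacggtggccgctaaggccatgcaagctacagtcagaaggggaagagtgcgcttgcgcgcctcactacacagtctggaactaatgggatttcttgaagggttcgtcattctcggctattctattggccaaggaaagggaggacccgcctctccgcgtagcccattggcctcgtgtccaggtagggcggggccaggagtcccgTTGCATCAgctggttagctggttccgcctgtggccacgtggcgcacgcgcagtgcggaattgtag
Yars: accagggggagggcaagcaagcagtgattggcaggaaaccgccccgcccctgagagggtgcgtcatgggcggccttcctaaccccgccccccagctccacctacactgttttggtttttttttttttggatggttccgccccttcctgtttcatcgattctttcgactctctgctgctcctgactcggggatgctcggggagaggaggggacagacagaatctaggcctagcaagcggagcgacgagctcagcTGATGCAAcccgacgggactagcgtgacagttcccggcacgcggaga
Aars, the alanine enzyme, held 2 matches, and the first lay 112 bases before its start site. In Gars and Tars, the glycine and threonine enzymes, the match began 30 and 15 bases before the start site. In Iars and Yars, the isoleucine and tyrosine enzymes, it fell within the first bases of the transcript. A match is a description of letters, and binding was not measured.

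Other motifs divided the genes differently. The E-box CACGTG was present in the promoters of Aars, Ears2, Farsb, Iars and Tars, against 7.15% of all windows. The ETS core CCGGAA was present in 12 of the 28 genes, 7 of them mitochondrial, against 14.9% of all windows. The motif of NRF1, a factor known for driving mitochondrial genes, read as TGCGCA, any base and GCGC, was present in Iars2, Kars and Mars2, against 2.44%. The full estrogen response element, GGTCA and TGACC with any 3 bases between them, was found in 0 of the 28 genes and in 0.07% of all windows.

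The libraries held 14935532 to 44282448 gene counts. Esr1, the deleted gene, measured 6.75, 9.43 and 7.46 CPM in MERKO and 25.1, 34.1 and 31.1 CPM in controls, a log2 fold change of −1.95 (SE 0.16, edgeR quasi-likelihood test, adjusted p = 0.0262), so every library matched its label. CPM are a gene's counts relative to the effective library size, and all fold changes are log2 of MERKO over control. All 8 muscle fibre markers were detected in every library. Libraries MERKO 1 and control 1 stood apart in slow fibre markers, with summed levels of 511 and 524 CPM against 35.9 to 47.1 CPM in the other 4. Summed tendon markers were 395, 199 and 82.2 CPM in MERKO and 83.2, 29.7 and 70.2 CPM in controls, and 7 of the 8 had fold changes above 0. Summed adipocyte markers were 133, 115 and 147 CPM in MERKO and 148, 482 and 225 CPM in controls, with all 8 fold changes below 0. Summed nerve and Schwann cell markers were 53.8, 35.1 and 35.2 CPM in MERKO and 32.9, 31.9 and 25.1 CPM in controls, with all 6 fold changes above 0. No gene of these 3 lists was at 0 in any library, and the part of these tissues in the results below was not tested. A feature at a ribosomal RNA locus, CT010467.1, took 0.0433% to 32.4% of a library's counts.

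All 38 synthetase genes were expressed highly enough to be tested, and 0 passed the threshold (edgeR, adjusted p under 0.05), against 0.00734% of the 13628 genes tested, which is Esr1 alone. DESeq2 called 0 of the 38 genes and 0.165% of genes. With the replicate number as a block, 51 genes passed, among them 1 synthetase, Lars2. At an unadjusted p under 0.05 there were 3 of the 38, against 7.04% of all genes. They were Lars2 on the higher side (3.71% of all genes) and Farsb and Dars on the lower (3.34%). Fold changes were above 0 for 22 genes and below 0 for 16, against 52.1% of all genes above 0. The groups did not overlap for 6 genes (13.3% of all genes), of which Lars2, Pars2 and Farsa were higher in MERKO (6.17%) and Farsb, Dars and Tarsl2 lower (7.1%).

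Most fold changes of synthetase genes lay close to 0. For 25 of the 38 the fold change was within 0.1 of 0 on the log2 scale, against 37.4% of all genes tested. The compartments differed, with 15 of the 19 cytosolic and 2 of the 2 dual genes but 8 of the 17 mitochondrial genes (47.06%). The 95% interval lay within 1.5-fold either way for 35 of the 38, against 54.1% of all genes. The exceptions were Lars2, Pars2 and Vars2, all mitochondrial. All genes tested include many at low levels with wider intervals. The summed level of the 37 genes other than Lars2 was close between groups, with cytosolic and dual genes at 1221, 1311 and 1292 CPM in MERKO and 1306, 1307 and 1249 CPM in controls.

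**Figure D1:**
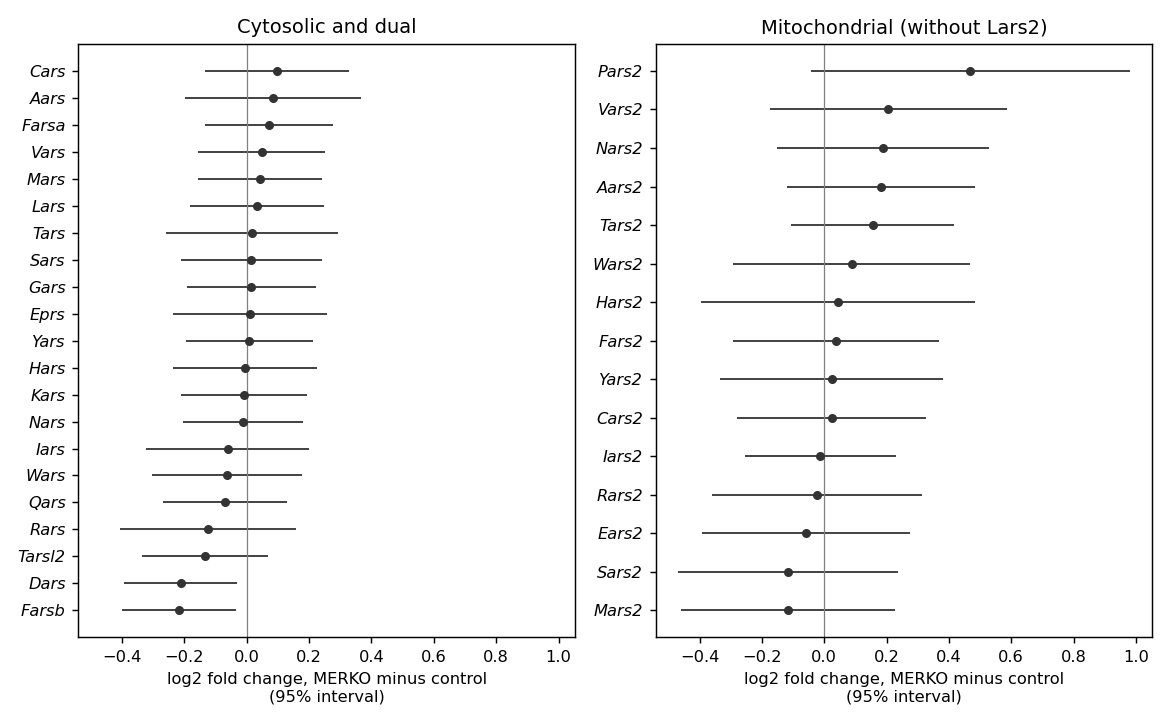
Log2 fold change of each synthetase gene, MERKO minus control (horizontal axis), with its 95% interval from the edgeR fit over 3 libraries per group; cytosolic and dual genes are on the left and the named mitochondrial genes other than Lars2 on the right. Most points lie within 0.1 of 0, Farsb and Dars lie lowest at −0.22 and −0.21, and Pars2 lies highest at 0.47 with a wide interval.

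Among the 19 cytosolic enzymes, 10 fold changes were above 0 and 9 below, with a median of 0.01 and a range of −0.22 to 0.10, beside a median of 0.01 over all genes tested. The cytosolic median ran from −0.04 without control 3 to 0.03 without control 2. The libraries varied little for these genes. The median within-group SD was 0.09 on the log2 scale, against 0.19 over all genes, and the ratio of the highest to the lowest library ran from 1.08 for Nars, the asparagine enzyme, to 1.38 for Rars, the arginine enzyme. Over the 21 cytosolic and dual genes, MERKO 1 held the lowest value of 8 and control 3 of another 8, while control 3 also held the highest value of 7.

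Farsb and Farsa encode the β and α subunits of cytosolic phenylalanyl-tRNA synthetase, which binds phenylalanine and its transfer RNA as a tetramer of both. Farsb (ENSMUSG00000026245.16, GRCm38 chr1:78417975-78488897, − strand) measured 33.7, 33.7 and 35.1 CPM in MERKO and 39.4, 39.2 and 40.3 CPM in controls. Every MERKO library was below every control. The fold change was −0.22 (SE 0.08, 95% interval −0.40 to −0.03, unadjusted p = 0.026), which did not pass after adjustment (edgeR, adjusted p = 0.683). Farsa (ENSMUSG00000003808.18, chr8:84856989-84869257, + strand) measured 18.2, 18.0 and 17.9 CPM in MERKO and 16.6, 17.7 and 17.4 CPM in controls. Its groups did not overlap either, in the other direction, by a narrow margin (0.07, 95% interval −0.13 to 0.28, adjusted p = 0.87), and without the composition factor its fold change was −0.04. It was 0.04 without control 1.

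The Farsb to Farsa ratio of CPM was therefore 1.85, 1.87 and 1.95 in MERKO and 2.38, 2.22 and 2.32 in controls. The MERKO mean was 1.89 ± 0.06 and the control mean 2.31 ± 0.08 (SD, n = 3 each). The difference of −0.29 in log2 ratio was larger than the spread between libraries, with an exact two-sided permutation p of 0.1, the smallest that 3 against 3 allows (adjusted p = 0.3 over the 6 ratios computed). Of the other 5 ratios, Aars to Aars2 also failed to overlap, at 5.06, 5.08 and 5.12 in MERKO and 5.26, 5.67 and 5.39 in controls, with the same exact p of 0.1 and adjusted p of 0.3. Each of the 6 ratios holds a gene among the 6 of lowest p in its class. Their exact p-values are therefore not independent of those results. The Farsb to Farsa pair was looked at after its values were seen. Each gene already separated the groups, in opposite directions. The separation of their ratio and its exact p were therefore fixed in advance and add no evidence. A share of 10.1% of the 50-base words of Farsb also occurs in Sgpp2 on the opposite strand, and Sgpp2 was too low to be tested.

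Dars, the aspartate enzyme and a member of the multi-tRNA synthetase complex (ENSMUSG00000026356.15, chr1:128363707-128417368, − strand), measured 53.8, 54.2 and 53.6 CPM in MERKO and 61.5, 62.7 and 63.2 CPM in controls. Every MERKO library was below every control. The SD within groups was 0.02 on the log2 scale, an estimate from 3 libraries each. It was smaller than the SE of 0.08 that the fit gave. The fold change was −0.21 (SE 0.08, 95% interval −0.39 to −0.03, unadjusted p = 0.0264, edgeR adjusted p = 0.683).

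Threonine has 2 cytosolic enzymes, Tars and its paralog Tarsl2, at mean levels of 6.97 and 9.68 CPM per kb of exon. Tarsl2 measured 59.4, 62.8 and 64.6 CPM in MERKO and 64.9, 67.6 and 72.3 CPM in controls, so the groups just failed to overlap (−0.13, 95% interval −0.34 to 0.07, adjusted p = 0.744). Tarsl2 overlaps Tm2d3 by 923 bases on the same strand. Tars measured 34.4, 44.9 and 44.9 CPM in MERKO and 39.0, 42.5 and 41.1 CPM in controls (0.02, 95% interval −0.26 to 0.29). MERKO 1 was the lowest library for both. The Tarsl2 to Tars ratio was 1.73, 1.40 and 1.44 in MERKO and 1.67, 1.59 and 1.76 in controls, and the groups overlapped (exact permutation p = 0.3, adjusted p = 0.45).

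Rars and Cars were the next cytosolic genes by p. Rars measured 29.2, 39.1 and 37.5 CPM in MERKO and 36.4, 38.3 and 40.3 CPM in controls (−0.12, 95% interval −0.41 to 0.16), and MERKO 1 lay below the control range; without it the fold change was −0.003, and it was −0.19 without MERKO 2. Cars, the cysteine enzyme, measured 27.6, 30.1 and 29.8 CPM in MERKO and 27.2, 30.0 and 24.8 CPM in controls (0.10, 95% interval −0.14 to 0.33, and −0.01 without the composition factor). It was 0.03 without control 3 and 0.17 without control 2. Both genes overlapped between groups.

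**Figure D2:**
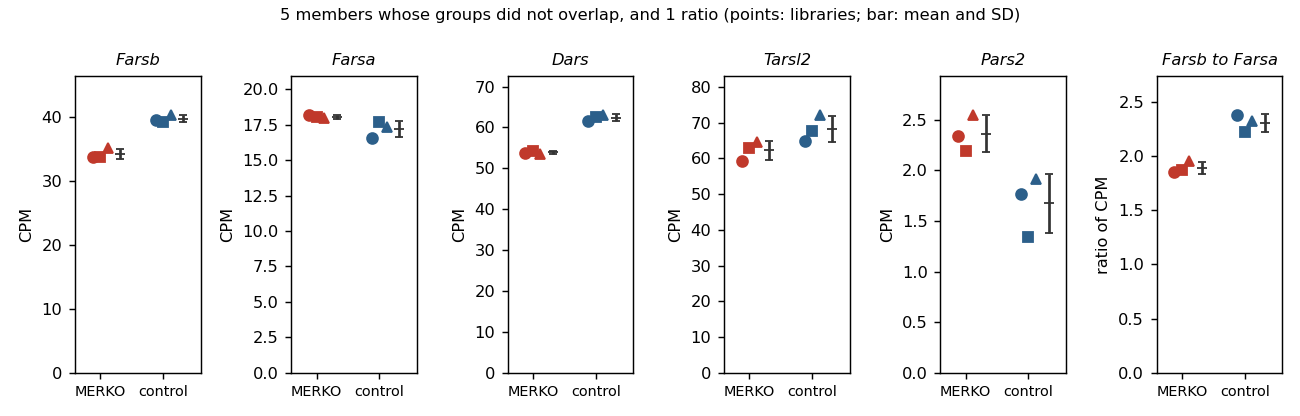
CPM of 5 synthetase genes whose groups did not overlap, and the Farsb to Farsa ratio of CPM (vertical axes, from 0), in 3 MERKO and 3 control libraries; points are libraries, and bars are mean and SD. Farsb, Dars and Tarsl2 lie lower in MERKO, Farsa and Pars2 higher, and the ratio lies at 1.89 in MERKO and 2.31 in controls on average.

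The multi-tRNA synthetase complex holds 8 of these enzymes. Of the 8, 3 had fold changes above 0 and 5 below, with a median of −0.03, against 7 above and 5 below and a median of 0.01 for the 12 cytosolic enzymes outside it. Eprs, which charges both glutamate and proline, measured 292, 343 and 320 CPM in MERKO and 319, 324 and 305 CPM in controls (0.01, 95% interval −0.24 to 0.26). Dars was the only one of the 8 with an unadjusted p under 0.05. The complex is held together by scaffold proteins. Aimp1 measured 41.9, 43.7 and 42.7 CPM in MERKO and 48.4, 41.8 and 52.9 CPM in controls (−0.16), and Eef1e1 had a fold change of −0.19. Without control 3 these were −0.08 and −0.04, and Eef1e1 was −0.06 without MERKO 1 and −0.30 without control 2. Aimp2 measured 47.2, 86.5 and 53.9 CPM in MERKO and 49.9, 52.2 and 59.9 CPM in controls. Its fold change of 0.21 rested on MERKO 2 and was −0.09 without that library, and it was 0.37 without MERKO 1. None of the 3 scaffold genes passed (edgeR adjusted p at least 0.741).

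Synthetases also fall into 2 structural classes by the fold of the catalytic domain. With Lars2 left out and Eprs counted in class I, 10 of 18 class I genes were above 0 (median 0.01) and 11 of 19 class II genes (median 0.01). Farsb and Dars are both class II enzymes.

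Both dual genes had fold changes near 0. Gars measured 56.5, 57.0 and 59.3 CPM in MERKO and 61.9, 55.1 and 54.1 CPM in controls (0.01, 95% interval −0.19 to 0.22). Kars, the lysine enzyme, measured 68.4, 73.3 and 70.2 CPM in MERKO and 68.5, 69.0 and 75.6 CPM in controls (−0.01, 95% interval −0.21 to 0.19). MERKO and control libraries overlapped for each gene.

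The mitochondrial enzymes other than Lars2 had 10 fold changes above 0 and 6 below, with a median of 0.03 and a range of −0.12 to 0.47. Leaving out 1 library moved this median widely and turned its sign. It was −0.06 without control 3 and −0.02 without MERKO 1, but 0.13 without control 1 and 0.12 without MERKO 3. With Lars2 the count was 11 above and 6 below and the median 0.04. Their summed level was 252.8, 241.8 and 215.3 CPM in MERKO and 255.0, 230.0 and 209.5 CPM in controls, so the groups overlapped. Their within-group SD had a median of 0.18 on the log2 scale, above the 0.09 of the cytosolic enzymes and close to the 0.19 of all genes. Their levels were also lower, with a median of 2.41 CPM per kb of exon against 9.68 for cytosolic enzymes. The part of low counts in this spread was not tested. The highest library was 1.21 times the lowest for Iars2 and 1.90 times for Pars2.

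Pars2, the mitochondrial proline enzyme (ENSMUSG00000043572.7, chr4:106651069-106655282, + strand), measured 2.34, 2.19 and 2.55 CPM in MERKO and 1.76, 1.34 and 1.91 CPM in controls. All 3 MERKO libraries were above all controls. The fold change was 0.47 (SE 0.22, 95% interval −0.04 to 0.98, unadjusted p = 0.0673, edgeR adjusted p = 0.713), at a level near the lowest of the family.

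The next 4 mitochondrial genes by p also had fold changes above 0, and their groups overlapped. Aars2, the alanine enzyme of mitochondria, measured 19.5, 19.9 and 18.8 CPM in MERKO and 19.9, 17.2 and 14.3 CPM in controls (0.18, 95% interval −0.12 to 0.48). Tars2 measured 22.9, 21.7 and 19.6 CPM in MERKO and 21.5, 18.7 and 17.6 CPM in controls (0.16, 95% interval −0.11 to 0.42). For both, control 3 was the lowest library. Nars2, the asparagine enzyme, measured 7.54, 6.65 and 7.89 CPM in MERKO and 6.93, 7.18 and 5.53 CPM in controls (0.19, 95% interval −0.15 to 0.53). Vars2, the valine enzyme, measured 13.1, 9.09 and 9.34 CPM in MERKO and 9.66, 9.63 and 8.42 CPM in controls (0.21, 95% interval −0.17 to 0.59), and its fold change was 0.004 without MERKO 1. Without control 3 the fold changes were 0.06 for Aars2, 0.09 for Tars2, 0.07 for Nars2 and 0.14 for Vars2. Without control 1 they were 0.31 for Aars2 and 0.24 for Tars2, and Tars2 was 0.10 without MERKO 1.

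Across libraries the mitochondrial set was highest in library 1 and lowest in library 3 of each group. The mean log2 level of the 16 genes, centred on the average of all 6, was 0.11, 0.06 and −0.10 in MERKO and 0.11, −0.05 and −0.14 in controls. Control 1 held the highest value of 7 of the 16 genes and MERKO 1 of another 5, while control 3 held the lowest value of 8 and MERKO 3 of 5. The 9 mitochondrial translation factors were also highest in library 1 of each group, with their lowest values in MERKO 2 and control 3, at 0.18, −0.09 and −0.04 in MERKO and 0.16, −0.05 and −0.16 in controls. MERKO 1 and control 1 are the libraries with high slow fibre markers, and the part of fibre type in these levels was not tested. Without both libraries the medians were 0.04 for cytosolic and 0.06 for mitochondrial enzymes other than Lars2, and 0 synthetases passed.

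**Figure D3:**
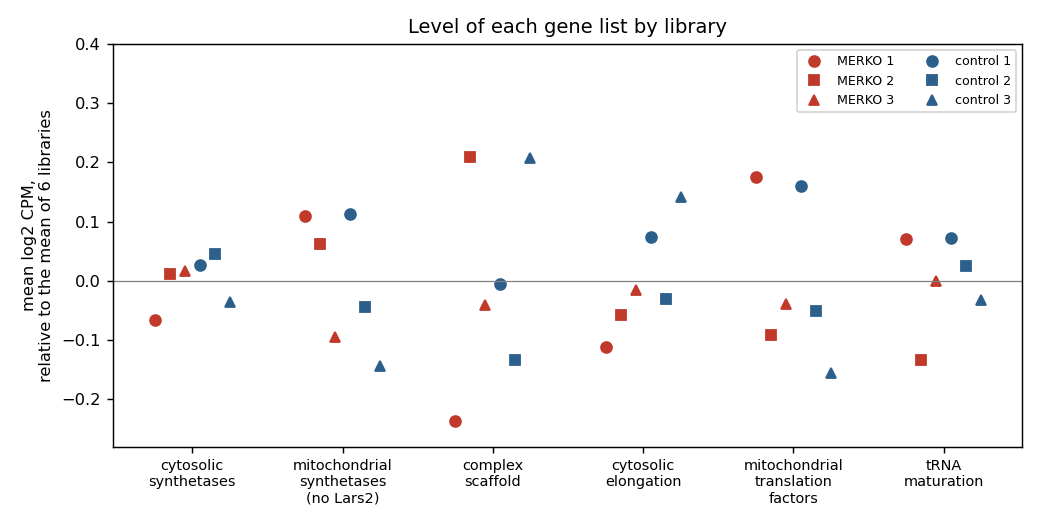
Mean log2 CPM of each gene list in each library, centred on the average over all 6 (vertical axis), for the 2 synthetase groups and 4 lists of related genes. The mitochondrial synthetases and mitochondrial translation factors are highest in MERKO 1 and control 1 and lowest in control 3, and the cytosolic synthetases stay within 0.07 of 0.

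Lars2, the mitochondrial leucine enzyme (ENSMUSG00000035202.7, chr9:123366927-123462666, + strand), was unlike every other synthetase gene in its spread. Its counts were 12520, 9872 and 1589 in MERKO and 801, 784 and 1395 in controls, or 381, 831 and 76.5 CPM and 33.7, 61.9 and 25.6 CPM. All MERKO libraries were above all controls, but MERKO 3 was close to control 2, and the highest library was 32.4 times the lowest. The fold change was 3.42 (SE 0.76, 95% interval 1.67 to 5.17, unadjusted p = 0.00194, edgeR adjusted p = 0.631). DESeq2 gave an adjusted p of 0.0776. With the replicate block the fold change was 2.96 and the adjusted p 0.0217. Over its 13 alternatives the edgeR or DESeq2 adjusted p ran from 6.99e-17 to 0.999 and was under the threshold in 3. Leaving out each library in turn gave fold changes of 2.52 to 3.92, the lowest without MERKO 2, with adjusted p from 0.0543 to 0.999.

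Lars2 alone made up 20.5%, 34.9% and 4.83% of all synthetase counts in MERKO and 2.11%, 3.87% and 1.73% in controls. Summed over all mitochondrial genes the level was 634, 1073 and 292 CPM in MERKO and 289, 292 and 235 CPM in controls, a pattern that the sum without Lars2, given above, does not show. Summed tendon markers were also highest in MERKO 1 and MERKO 2, at 395 and 199 CPM, and their part in the Lars2 values was not tested.

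The feature whose log2 CPM followed Lars2 most closely over the 6 libraries was Gm15564, a non-coding gene on chromosome 16 (Pearson r = 0.994, n = 6, libraries shared). It measured 36.2, 97.5 and 3.42 CPM in MERKO and 0.882, 1.58 and 0.735 CPM in controls, with a fold change of 5.56 (edgeR adjusted p = 0.631, DESeq2 adjusted p = 0.00303). The order of the MERKO libraries was the same as for Lars2. Gm15564 and Lars2 share an exact run of 52 bases on the same strand, at chr9:123462048-123462099, in exon 21 of 21 of Lars2 and after its coding part. The next genes by likeness were Ankrd10 (r = 0.992), Gm29521 (r = 0.991), Cc2d2a (r = 0.989) and Dkk3 (r = 0.988).

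Features at the ribosomal RNA locus of chromosome 17 were looked at after these values were seen. Gm42418 measured 1524, 5293 and 811 CPM in MERKO and 410, 774 and 339 CPM in controls (2.33, edgeR adjusted p = 0.654), in the same order of libraries within MERKO and within controls as Lars2. CT010467.1 did not follow that order, with 50096, 430024 and 204633 CPM in MERKO and 101608, 326131 and 352 CPM in controls. Gm26917, at the same locus, did not either. It measured 1649, 2194 and 2095 CPM in MERKO and 2054, 2060 and 2433 CPM in controls (−0.14). The mitochondrial ribosomal RNAs mt-Rnr1 and mt-Rnr2 had fold changes of 0.32 and 0.04, and their groups overlapped. No run of 15 or more bases was shared between Lars2 transcripts and Gm42418, CT010467.1 or the mitochondrial ribosomal RNAs. Coverage along the gene was not analysed here, and whether reads of another RNA were counted for Lars2 was not tested. With Lars2 and CT010467.1 left out of the fit, the other 37 synthetase genes gave 0 calls and medians of −0.002 and 0.021 for the cytosolic and mitochondrial sets.

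**Figure D4:**
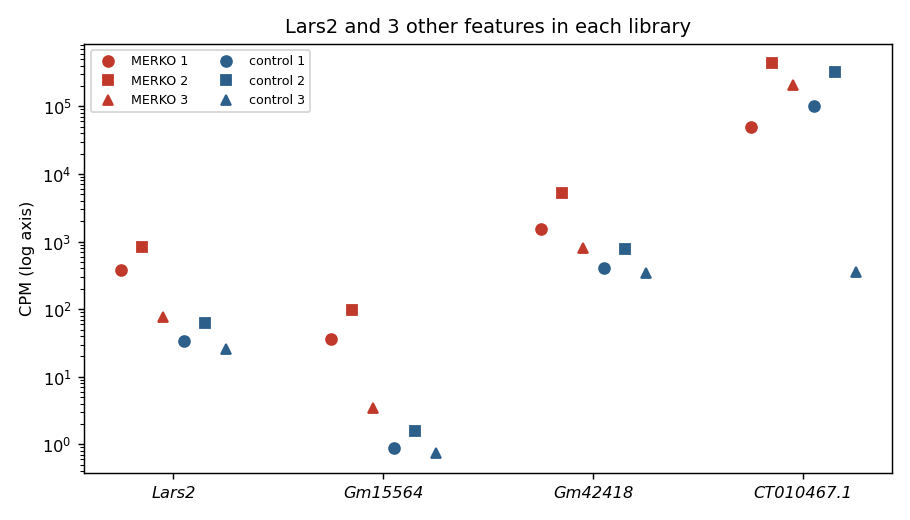
CPM (logarithmic vertical axis) of Lars2, Gm15564, Gm42418 and CT010467.1 in the 6 libraries, each point 1 library. Lars2, Gm15564 and Gm42418 are highest in MERKO 2 and then MERKO 1, whereas CT010467.1 is lowest in control 3 at 352 CPM.

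Levels of different genes were compared as mean CPM per kb of annotated exon over the 6 libraries. Cytosolic enzymes had a median of 9.68 CPM per kb (range 3.88 to 19.3), against 2.41 (0.652 to 7.20) for mitochondrial enzymes without Lars2 and 2.21 for all protein-coding genes tested. The highest levels among cytosolic and dual genes were those of Nars at 19.3 ± 0.5 and Gars at 18.4 ± 0.9 CPM per kb (SD, n = 6). Nars was the higher in every library but control 1, at 19.5 against 19.8 there, and the difference was not tested. Nars measured 82.3, 83.3 and 85.8 CPM in MERKO and 84.7, 81.1 and 87.5 CPM in controls, and the groups overlapped. The lowest were Farsa at 3.88 ± 0.13 and Cars at 4.29 ± 0.32. Among mitochondrial genes Lars2 had the highest mean, 21.2 ± 29.0, with an SD above its mean, followed by Iars2 at 7.20 ± 0.54. Iars2 measured 68.0, 63.8 and 59.1 CPM in MERKO and 69.9, 65.2 and 57.7 CPM in controls. Iars2 shares 36.6% of its 50-base words with Rab3gap2 on the opposite strand. The lowest were Pars2 at 0.652 ± 0.141 and Wars2, the tryptophan enzyme, at 0.975 ± 0.126. Wars2 measured 5.87, 6.99 and 5.10 CPM in MERKO and 6.22, 5.68 and 4.94 CPM in controls, and both Iars2 and Wars2 overlapped between groups.

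Lengths change this order. Per kb of the longest coding transcript, the medians were 16.1 for cytosolic and 3.89 for mitochondrial genes without Lars2, and the highest cytosolic or dual genes became Eprs at 64.7 and Kars at 32.4. The lowest cytosolic genes became Vars at 7.72 and Iars at 8.04. Pars2 was the lowest mitochondrial gene on both scales.

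For each amino acid with an enzyme in both compartments, the cytosolic gene was usually the higher on the exon scale. The Nars to Nars2 ratio of CPM per kb was 19.6 ± 3.0 (SD, n = 6) and Mars to Mars2, the methionine enzymes, 14.0 ± 1.9. Eprs to Pars2 was 28.2 ± 7.4, though Eprs charges glutamate as well as proline. The smallest ratios were Farsa to Fars2 at 1.20 ± 0.16 and Iars to Iars2 at 0.942 ± 0.106. The first depends on taking Farsa for the cytosolic phenylalanine enzyme. Farsb, its other subunit, had a mean of 14.1 CPM per kb, against 3.88 for Farsa and 3.28 for Fars2. The part of the sequence that Iars2 shares with Rab3gap2 in the second was not tested. Iars2, the mitochondrial isoleucine gene, was above Iars in 4 of the 6 libraries. The Lars to Lars2 ratio ran from 0.136 in MERKO 2 to 3.92 in control 3.

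**Figure D5:**
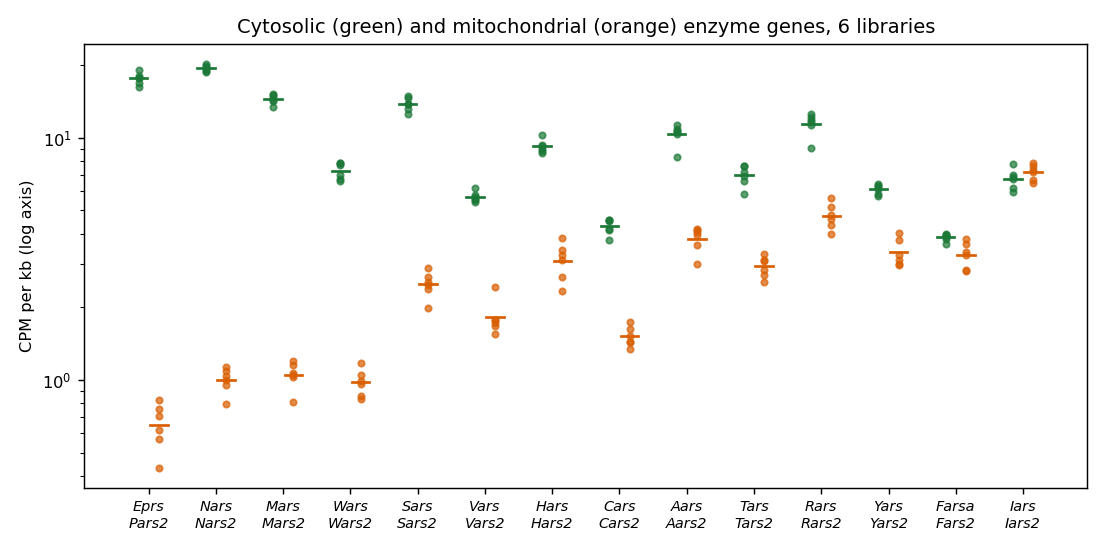
CPM per kb of exon (logarithmic vertical axis) of the cytosolic gene (green) and the mitochondrial gene (orange) for 14 amino acid pairs, Lars2 left out; points are the 6 libraries and lines their mean. The cytosolic gene lies above the mitochondrial gene by up to 28.2 times for Eprs and Pars2, while Iars overlaps Iars2 and Farsa overlaps Fars2.

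Genes that act beside the synthetases were read from lists of related functions, and 0 of their tested members passed. Among enzymes that edit, amidate or further convert charged transfer RNA, 9 of 10 were tested (not Aarsd1), with 5 above 0, 4 below and a median of 0.02. Gatc, a subunit of the amidotransferase that makes glutaminyl-tRNA in mitochondria, had a fold change of −0.11, and it was 0.002 without MERKO 1, −0.04 without control 2 and −0.19 without MERKO 3 or without control 1. Sepsecs, which makes selenocysteine on its transfer RNA, had 0.11, but −0.03 without the composition factor, 0.00044 without MERKO 2 and 0.22 without MERKO 3. Prorsd1 had −0.19, and −0.06 without MERKO 1, −0.11 without control 3 and −0.35 without MERKO 3.

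Of 15 genes of transfer RNA processing and modification, 14 were tested (not Prorp), with 6 above 0, 8 below and a median of −0.02. Trmt10c, a subunit of the mitochondrial RNase P that frees transfer RNAs from their precursor, measured 15.5, 14.9 and 15.2 CPM in MERKO and 17.5, 17.1 and 18.3 CPM in controls. The groups did not overlap (−0.22, SE 0.09, unadjusted p = 0.0463, edgeR adjusted p = 0.694). Its partner in the same enzyme, Hsd17b10, had a fold change of −0.16, which was −0.07 without MERKO 2 and −0.24 without MERKO 1. The methyltransferase Trmt5 had −0.26 (adjusted p = 0.715), and −0.16 without control 3. These values overlapped between groups.

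All 8 cytosolic elongation genes had fold changes below 0, with a median of −0.11, against 6534 of the 13628 genes tested. The 8 genes were measured in the same libraries, so they are not separate observations. Eef1b2, an exchange factor for the elongation factor that delivers charged transfer RNA, measured 63.9, 58.3 and 60.1 CPM in MERKO and 76.0, 62.1 and 80.4 CPM in controls (−0.26, unadjusted p = 0.0495, edgeR adjusted p = 0.706). Eif5a had −0.16 and Eef2k, the kinase of elongation factor eEF2, had −0.20. Without MERKO 1 these were −0.06 and −0.05. The mean log2 level of the list was −0.11, −0.06 and −0.02 in MERKO and 0.07, −0.03 and 0.14 in controls, so control 2 lay within the MERKO range. Between libraries of the same number the MERKO library was the lower one, for this mean and for Eef1b2. No label says that the numbers pair the libraries. With the replicate block the fold change of Eef1b2 was −0.26 (edgeR adjusted p = 0.283). Of the 9 mitochondrial translation factors, 6 were above 0 and 3 below, with a median of 0.09. The initiation factors Mtif3 and Mtif2 had fold changes of −0.18 and 0.14. Mtif3 was −0.11 without MERKO 2. Mtif2 was 0.04 without control 2, 0.08 without MERKO 1, 0.23 without MERKO 3 and 0.28 without control 1. The ribosome recycling factor Gfm2 had 0.11, or −0.002 without control 3, 0.07 without MERKO 1 and 0.25 without control 1.

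The amino acid response was read from ATF4 and 21 genes it is known to drive, with no synthetase in the list. Of the 22, 19 were tested (not Slc7a11, Fgf21 or Gdf15), with 9 above 0, 10 below and a median of −0.03. Aldh1l2, a mitochondrial folate enzyme, measured 5.26, 6.15 and 5.15 CPM in MERKO and 2.48, 3.08 and 3.05 CPM in controls (0.94, SE 0.17, unadjusted p = 0.000442, edgeR adjusted p = 0.631). Its groups did not overlap. Eif4ebp1, a repressor of translation initiation, measured 23.4, 22.8 and 28.8 CPM in MERKO and 32.4, 30.4 and 34.9 CPM in controls (−0.38, adjusted p = 0.654), again without overlap. Slc7a5, a leucine transporter, was low in all libraries, from 0.473 to 1.73 CPM, and its groups overlapped (0.93, adjusted p = 0.687). The 5 synthetases with the ATF4 letters in their promoter, shown above, had fold changes of 0.08 (Aars), 0.01 (Gars), −0.06 (Iars), 0.02 (Tars) and 0.01 (Yars). All 5 were within 0.1 of 0, but so were 17 of the 21 cytosolic and dual genes, and 37.4% of all genes tested.

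The remaining members overlapped between groups. Among cytosolic genes these were Qars at −0.07, Wars at −0.06, Vars at 0.05, Mars at 0.04, Lars at 0.03, Sars at 0.01, Nars at −0.01 and Hars at −0.01. Among mitochondrial genes they were Mars2 at −0.12, Sars2 at −0.12, Wars2 at 0.09, Ears2 at −0.06, Hars2 at 0.04, Fars2 at 0.04, Yars2 at 0.02, Cars2 at 0.02, Rars2 at −0.02 and Iars2 at −0.01. Hars2 ranged most of these, from 9.91 CPM in MERKO 3 to 16.4 CPM in MERKO 1, and it overlaps Hars on the opposite strand by 198 bases. Of the 38 genes, 12 overlap another coding gene. Reads of overlaps on opposite strands cannot be told apart without a strand setting, and those of Aars with Exosc6 and of Tarsl2 with Tm2d3 lie on the same strand, where strand does not separate them.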

How the data were processed

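RNA of 6 quadriceps samples was sequenced after TruSeq preparation, per the labels' protocols. The authors deposited 1 table of raw counts per gene. Per the submitters' processing notes, STAR 2.5.2b, HTSeq 0.9.1, DESeq, mm10 and GRCm38 were used. Which gene annotation was counted, whether strand was used and how multi-mapped reads were treated: not given in the sources used here. Gene symbols, exon lengths and positions came from GENCODE M21 (GRCm38), and promoters from RefSeq (GRCm38.p6).

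From the counts, edgeR 4.0.16 (R 4.3.3) was run with filterByExpr (13628 genes), TMM composition factors and its quasi-likelihood test of MERKO against control, 3 libraries each, with Benjamini-Hochberg adjustment at 0.05 over all genes tested. DESeq2 1.42.0, another scaling, other filters, a replicate block, an analysis without Lars2 and CT010467.1, and leaving out each library were alternatives. The edgeR fit alone was also run on simulated counts without the composition differences of these libraries, and no result above rests on that run. Levels are CPM over the effective library size, also per kb of exon. List scores are means of log2(CPM + 0.5).

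Per-library values are given for the 6 genes of lowest p and the 2 highest and 2 lowest levels in each class, and Tars and Tarsl2; the 3 lowest p of each related list are named. One mitochondrial gene is not reported here, though counts and medians of its class include it. The members and lists were chosen with earlier results of these data known. No label says that libraries are separate animals, so each p-value reflects only how these libraries vary, which may be technical. Libraries within a group differed by more than repeated counting of the same library would give (chi-square per degree of freedom at least 109.6). Across groups the lowest value was 25.7, for MERKO 2 with control 2. The statistic includes CT010467.1, whose share varied widely, so it cannot tell whether libraries of a group came from the same animal. The titles give both groups the numbers 1 to 3. Deviations from the group means correlated at 0.516, 0.230 and 0.111 for libraries of the same number. Unlike numbers also reached 0.216 (MERKO 2 with control 3) and 0.136 (MERKO 3 with control 2). The other unlike numbers gave −0.391, −0.310, −0.278 and −0.218. These values do not settle whether the numbers pair the libraries. The main fit left the numbers out, and the replicate block was an alternative.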

Additional observations from a re-analysis of the deposited data

How the results depend on the processing

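The number of genes past the threshold was 1, and it was 23 with DESeq2, 93 without a composition factor, 140 without a filter, 51 with the replicate block, 7 without MERKO 1 and control 1 together (an alternative added after seeing the data), and 0 to 11 when each library was left out, with 0 without MERKO 1 or MERKO 2, 11 without MERKO 3, and 2 without control 1 or control 3. The number of synthetase genes past it was 0, and it was 1, Lars2 each time, without a composition factor (3.28, adjusted p = 6.99e-17), without a filter (3.41, adjusted p = 6.3e-05) and with the block (2.96, adjusted p = 0.0217), and 0 without each library. The block changed no other call among the synthetases and genes of the related lists named by p. Without the composition factor the median of all genes moved from 0.01 to −0.10 and the cytosolic median to −0.12, and Cars (−0.014), Farsa (−0.039) and Sepsecs (−0.026) changed sign. Leaving out 1 library moved the cytosolic median between −0.04 and 0.03 and the mitochondrial median between −0.06 and 0.14, and gave ranges that cross 0 for Gatc (−0.19 to 0.0021), Aimp2 (−0.089 to 0.37) and Gfm2 (−0.0024 to 0.25). Aldh1l2 passed without a filter (0.93, adjusted p = 0.0186). Of 418 values of named genes under the alternatives, 408 kept their direction and their side of the threshold, 6 changed sign and 4 newly passed. Depth limits genes at low levels, such as Pars2 at 1.34 to 2.55 CPM.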

Other observations

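Shared sequence differed among the synthetase genes. Of the 38, 17 shared at least 1 word of 50 bases with another gene, and 2 shared over 20% of them, Iars2 with Rab3gap2 (36.6%) and Aars with Exosc6 (22.4%). Cars2 shared 17.8% with Naxd, Hars 7.53% with Hars2, and Hars2 4.44% with Hars. Lars2 shared 0.08%, all with Gm15564.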
